A study of Mus musculus with 10 samples.

Results

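The complement system is represented here by 9 of the 55536 mouse genes in the count tables, chosen by name: C1qa, C1qb, C1qc, C3, C4b, C3ar1, C5ar1, Serping1 and Itgam. The 10 RNA-seq libraries came from 5 mice aged 1 year, each of which gave its cerebellum and its cerebral cortex. In the knockout (KO) mice both copies of Snx14 have a frameshift deletion in exon 14, made with CRISPR and bred onto the C57BL/6J background, so the loss is in every cell and not in a chosen cell type. Snx14 encodes a sorting nexin of the endoplasmic reticulum. For each tissue there were 2 KO mice (KO 1 and KO 2) and 3 controls, of which controls 1 and 2 were heterozygous (Het) and control 3 was wild type (WT). The purpose of the pair of tissues was to set a region that loses neurons in the KO beside one that does not.

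Complement is a cascade of plasma proteins that is also made locally in the brain. C1q, built from the products of C1qa, C1qb and C1qc, starts the classical pathway and is made in the brain mainly by microglia. C4, made largely by astrocytes and other glia, is cleaved next and leads to cleavage of C3. Fragments of C3 are read by the receptor CR3, whose alpha chain is encoded by Itgam, and the small peptides C3a and C5a are read by C3ar1 and C5ar1. Serping1 encodes the C1 inhibitor, which blocks the proteases that C1q carries. In development and disease this chain tags synapses and debris for removal by microglia.

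Library totals ranged from 16088310 to 22975355 gene counts. Levels are given as counts-per-million values (CPM), scaled over all 10 libraries by TMM factors, and in bulk tissue more cells of a type cannot be told apart from more RNA per cell. Snx14 itself measured 42.8, 39.9 and 73.2 CPM in the cerebellum of controls 1 to 3 and 15.5 and 17.4 CPM in KO 1 and KO 2. The controls' cortex held 34.3, 34.9 and 50.8 CPM, and that of KO 1 and KO 2 held 14.8 and 16.1 CPM. The tissues carried their markers, since 6 granule cell genes were called higher in control cerebellum and 5 of 6 cortical excitatory neuron genes lower. By Xist and Y-linked genes 1 control and 1 KO mouse were male. The cerebellum library of KO 1 nearly lacked the choroid plexus, whose 6 marker genes summed to 46.9 CPM there and to between 1193 and 3400 CPM in the other 4 cerebella.

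The genes lie on 5 chromosomes of build GRCm38. C1qb (chr4:136880129-136886187), C1qc (chr4:136889804-136893065) and C1qa (chr4:136895917-136898803) stand side by side on the minus strand. C4b (chr17:34728380-34743882) and C3 (chr17:57203970-57228136) share chromosome 17. C3ar1 lies at chr6:122847138-122856161, C5ar1 at chr7:16246743-16259540, Serping1 at chr2:84765387-84775444 and Itgam, alone on the plus strand, at chr7:128062640-128118491. For 8 of the 9 genes no exonic base was shared with another annotated gene. For Itgam 68.7% of the exonic bases also belong to Gm49368, and a pair that overlaps both was counted for both. C4b has a near-identical neighbour, C4a, and reads that map to both were not counted, so the level of C4b is uncertain to that degree.

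Promoter windows from RefSeq (GRCm38.p6) were at hand for 6 of the 9 genes, and for 3 of these the 250 bases before the start lay outside the gene as annotated in the tables. The windows of C1qb and C3 are shown because one belongs to the C1q cluster, whose 3 genes lay higher in both KO cerebella, and the other to the component with the highest fold change. Capitals mark matches to the PU.1 core GAGGAA or the C/EBP pattern TTGCNNAA, searched on both strands and chosen with the sequences in view.
C1qb, minus strand, chr4:136886201-136886450: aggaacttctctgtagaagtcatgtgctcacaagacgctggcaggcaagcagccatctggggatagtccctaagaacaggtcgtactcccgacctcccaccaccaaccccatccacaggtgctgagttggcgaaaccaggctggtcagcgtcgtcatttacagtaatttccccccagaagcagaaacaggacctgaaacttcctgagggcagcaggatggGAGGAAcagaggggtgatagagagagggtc
C3, minus strand, chr17:57228137-57228386: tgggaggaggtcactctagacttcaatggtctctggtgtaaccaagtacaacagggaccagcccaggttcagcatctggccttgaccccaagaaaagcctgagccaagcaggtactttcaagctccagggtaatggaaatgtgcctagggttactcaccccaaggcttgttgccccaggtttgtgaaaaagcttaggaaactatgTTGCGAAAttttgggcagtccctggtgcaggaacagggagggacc
C1qb held 1 PU.1 core, which begins 30 bases before the start, and C3 held 1 C/EBP match, which begins 45 bases before it. Of all 32851 promoter windows 23.3% held the PU.1 core and 9.56% the C/EBP pattern. The third pattern searched, the STAT site TTCNNNGAA, was found in 7.02% of all windows and in neither of these. The window of Itgam, not shown, held 2 PU.1 cores, which begin 84 and 15 bases before its start. Itgam was not called in KO cerebellum (log2 0.24, adjusted p = 0.637 by edgeR), and the part of these motifs in any level was not tested.

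Levels of different genes were compared per kilobase of exon. In control cerebellum C1qa stood at 25.2 ± 2.86 CPM per kb (SD, n = 3) and C1qb at 23.5 ± 1.30, and their ranges overlapped. C1qc followed at 11.3 ± 1.86 CPM per kb, below both in every control. Serping1 at 6.86 ± 0.487 and C4b at 5.64 ± 1.42 CPM per kb overlapped, as did C3 at 0.490 ± 0.485 and C3ar1 at 0.476 ± 0.0891. Itgam lay between these pairs at 1.65 ± 0.281 CPM per kb and C5ar1 had the lowest mean at 0.132 ± 0.0402, within the range of C3. In control cortex the 3 C1q genes again led and C4b followed, but Itgam stood next, above Serping1, and C3 had the lowest mean, 0.117 ± 0.0851 CPM per kb, with a range that overlapped that of C5ar1.

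In the cerebellum C1qa, C1qb and C4b were higher in the KO mice than in the controls, and no member was called lower. Each gene was tested by quasi-likelihood in edgeR, and calls needed a log2 fold change beyond 0.5 in size together with a p under 0.05 after Benjamini-Hochberg adjustment. Of the 9 members 3 were called, all higher, while 0.514% of the 19447 genes tested were called higher and 1.55% either way. C5ar1 did not pass the filter on low counts and was not tested. For 8 of the 9 members both KO libraries lay above all 3 controls, which held for 15.4% of all genes tested, and C5ar1 was the exception. The median log2 fold change of the 8 members tested was 0.67, and that of all genes was 0.00.

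C1qa, the A chain of C1q, measured 22.8, 27.7 and 28.1 CPM in the cerebellum of controls 1 to 3 and 51.0 and 43.9 CPM in KO 1 and KO 2. Both KO values lay far above the highest control, and the fold change was 1.80 (log2 0.85, SE 0.116, adjusted p = 0.00889 by edgeR). C1qb, the B chain, measured 24.2, 25.3 and 27.0 CPM in the controls and 41.8 and 38.9 CPM in the KO mice. Its controls were the tightest of the C1q genes, and it rose by 1.57-fold (log2 0.65, SE 0.0889, adjusted p = 0.00885 by edgeR). C1qc, the C chain, measured 18.3, 21.9 and 25.5 CPM in the controls and 35.7 and 32.6 CPM in the KO mice. The groups did not overlap here either, but with a log2 fold change of 0.63 (SE 0.136) C1qc missed the threshold (adjusted p = 0.0597 by edgeR), which it passed without control 3 (adjusted p = 0.0489) and by DESeq2 (adjusted p = 0.00272). Without the KO 1 library C1qa and C1qb lost their calls (adjusted p of 0.0691 and 0.0711 by edgeR), C1qb also without control 1 (adjusted p = 0.0639 by edgeR).

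C4b, the C4 component, measured 30.5, 25.0 and 40.9 CPM in the cerebellum of the controls and 63.1 and 79.2 CPM in the KO mice. The lower KO value was above the highest control, and C4b rose by 2.21-fold (log2 1.14, SE 0.184, adjusted p = 0.0169 by edgeR). The neighbour C4a held between 13 and 27 counts in each cerebellum library, in KO and control alike, so few reads were assigned to it. The call of C4b was lost without control 1 (adjusted p = 0.109 by edgeR) and without KO 2 (adjusted p = 0.0909 by edgeR).

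C3, the component on which the pathways converge, had the largest fold change among the members and the widest spread among the controls relative to its mean. It measured 2.01, 0.324 and 5.24 CPM in the cerebellum of controls 1 to 3, which rested on 43, 7 and 103 counts. In KO 1 and KO 2 it measured 14.3 and 17.1 CPM, on 261 and 413 counts. Every KO value was above every control, with a log2 fold change of 2.65 (SE 0.645) that did not pass the threshold (adjusted p = 0.0918 by edgeR). Without control 2, the lowest library, the log2 fold change was 2.12 and was called (adjusted p = 0.0220 by edgeR), and without control 3, the highest, it was 3.75 and was called as well (adjusted p = 0.0394 by edgeR). It was not called without control 1, KO 1 or KO 2 (adjusted p of 0.338, 0.184 and 0.257 by edgeR) or by DESeq2 (adjusted p = 0.334). The choroid plexus sum was 2851, 1193 and 3400 CPM in controls 1 to 3, which is the order of their C3 levels. It was 46.9 CPM in KO 1 and 2909 CPM in KO 2, and the part of that tissue in the level of C3 was not tested.

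None of the receptors or the inhibitor was called. C3ar1, the C3a receptor, measured 1.63, 2.13 and 2.39 CPM in control cerebellum and 3.29 and 3.31 CPM in the KO mice. The groups did not overlap, and the log2 fold change of 0.68 (SE 0.233) did not pass the threshold (adjusted p = 0.243 by edgeR). C5ar1, the C5a receptor, measured 0.280, 0.277 and 0.457 CPM in the controls and 1.26 and 0.372 CPM in the KO mice, on 6 to 23 counts a library, and here the groups overlapped. Itgam, the CR3 alpha chain, measured 6.67, 8.97 and 9.25 CPM in the controls and 9.77 and 9.93 CPM in the KO mice, a log2 fold change of 0.24 (SE 0.172, adjusted p = 0.637 by edgeR). Itgb2, which encodes the beta chain that Itgam pairs with, had a log2 fold change of 0.64 (SE 0.195, adjusted p = 0.181 by edgeR). Serping1 measured 16.3, 16.9 and 14.7 CPM in the controls and 19.9 and 21.5 CPM in the KO mice. The C1 inhibitor thus lay higher in both KO cerebella, by a log2 fold change of 0.37 (SE 0.112) that did not pass the threshold (adjusted p = 0.180 by edgeR).

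**Figure D1:**
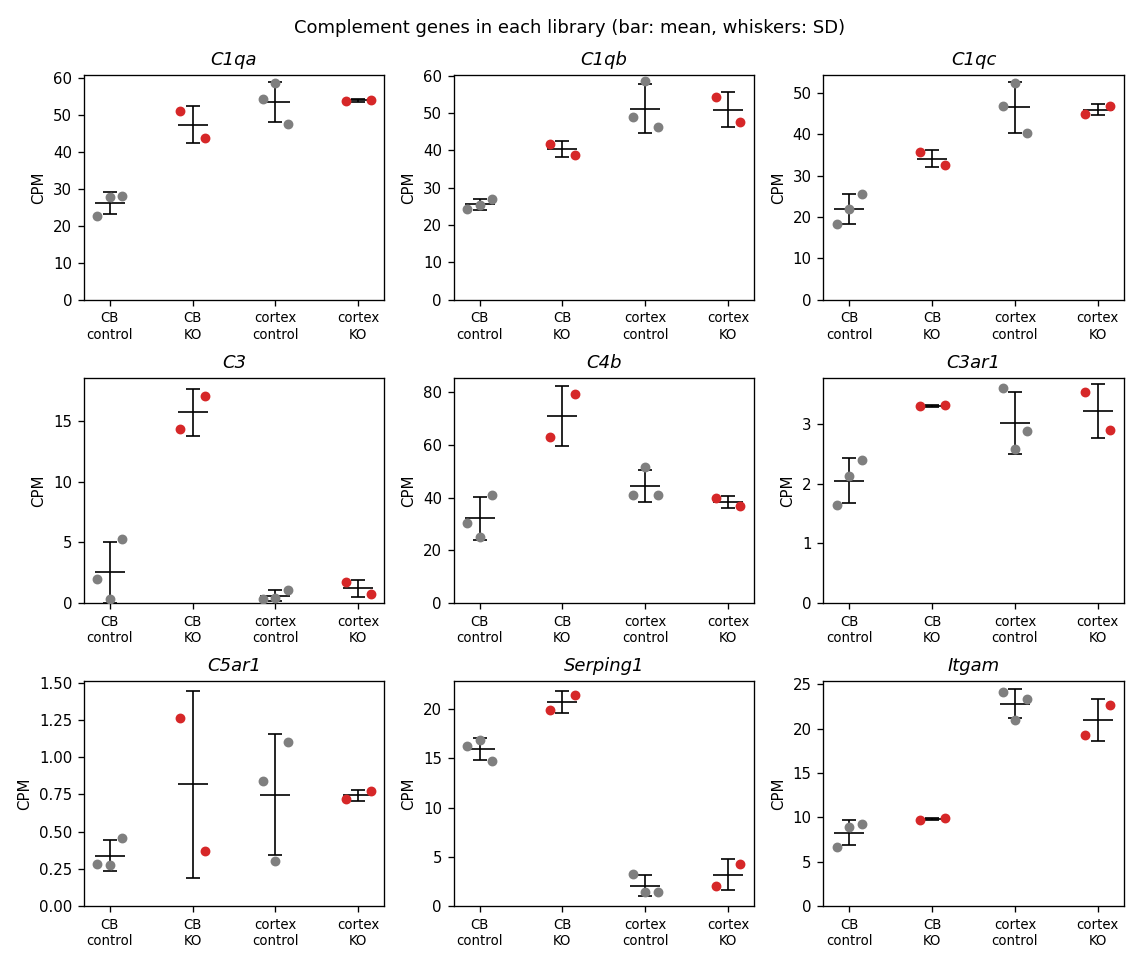
CPM of the 9 complement genes (y axis, linear, from 0) in each library of control (grey) and KO (red) cerebellum (CB) and cortex, with the group mean as a bar and the SD as whiskers (n = 3 controls and 2 KO). In cerebellum both red points lie above all grey points for every gene but C5ar1, while in cortex the points overlap for every gene but C4b.

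In the cortex none of the 9 members was called, and 0% of the 19202 genes tested were called (0 genes by edgeR, with 1139 at an unadjusted p under 0.05 and 49 genes called by DESeq2). The test did not call Snx14 itself there (log2 -1.36, SE 0.192, adjusted p = 0.754 by edgeR), although it did in cerebellum (log2 -1.66, SE 0.256, adjusted p = 0.0140 by edgeR). C1qa measured 54.4, 58.7 and 47.7 CPM in the controls and 53.8 and 54.2 CPM in the KO mice, a log2 fold change of 0.02 (SE 0.109). The KO values fell inside the control range, and the same was true of C1qb and C1qc, whose log2 fold changes were 0.01 (SE 0.128) and -0.01 (SE 0.125). C1qb measured 48.8, 58.5 and 46.2 CPM in the controls and 54.2 and 47.5 CPM in the KO mice. C1qc measured 46.9, 52.5 and 40.3 CPM in the controls and 45.1 and 47.0 CPM in the KO mice. All 3 changes were within 1 SE of 0.

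C4b measured 41.0, 51.6 and 41.2 CPM in control cortex and 39.9 and 36.8 CPM in KO cortex. Here both KO libraries lay below all controls, opposite to the cerebellum, with a log2 fold change of -0.20 (SE 0.131, adjusted p = 0.886 by edgeR). It was the one member without overlap in cortex, where 24.7% of all genes tested had groups that did not overlap in one direction or the other. C3 was scarce, at 0.299, 0.405 and 1.10 CPM in the controls and 1.71 and 0.707 CPM in the KO mice, on 5 to 31 counts a library. The groups overlapped, with a log2 fold change of 1.05 (SE 0.617, adjusted p = 0.886 by edgeR).

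Serping1 measured 3.29, 1.42 and 1.47 CPM in control cortex and 2.10 and 4.30 CPM in KO cortex, and the groups overlapped (log2 0.64, SE 0.452, adjusted p = 0.887 by edgeR). The 5 cortex libraries stood in the same order for Serping1 as for the summed CPM of 8 fibroblast and meningeal genes, which was 81.8, 21.8 and 34.8 in the controls and 58.7 and 87.4 in the KO mice, and the part of those cells in the result was not tested. C3ar1 measured 3.59, 2.58 and 2.88 CPM in the controls and 3.53 and 2.89 CPM in the KO mice. C5ar1 measured 0.838, 0.304 and 1.10 CPM in the controls and 0.718 and 0.771 CPM in the KO mice. Both receptors overlapped between the groups, as did Itgam, at 24.1, 21.01 and 23.4 CPM in the controls and 19.3 and 22.7 CPM in the KO mice.

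**Figure D2:**
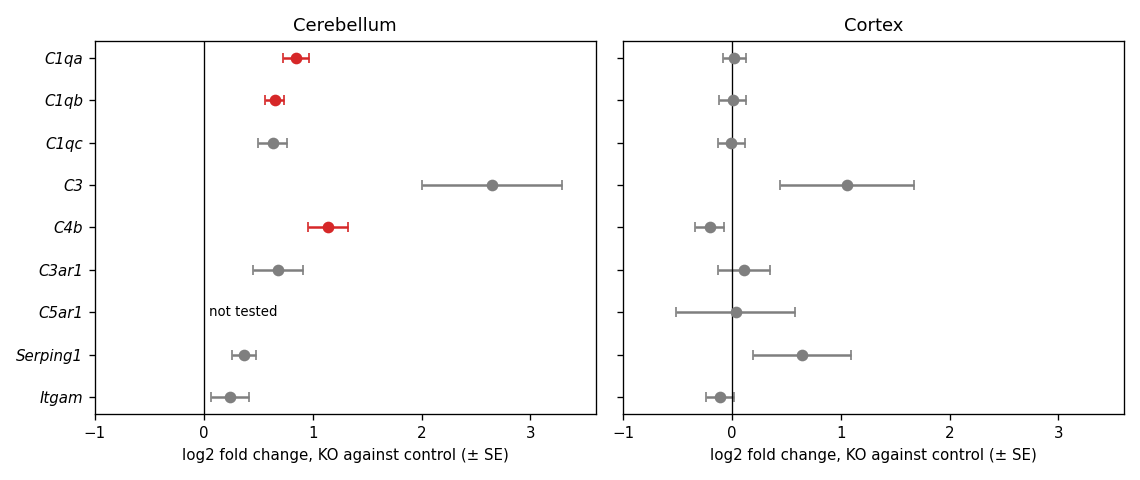
Log2 fold change of KO against control with its SE (x axis) for the complement genes (y axis), 8 tested in cerebellum (left, C5ar1 not tested) and 9 in cortex (right), with called genes in red. C1qa, C1qb and C4b were called in cerebellum at 0.85, 0.65 and 1.14, and no gene was called in cortex.

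An interaction term over all 10 libraries tested whether the KO effect was larger in one tissue. In the unblocked fit 0.102% of the 20614 genes tested passed an adjusted p under 0.05, and of the 9 members 0 passed. By DESeq2 3 members passed, among 219 genes in all. An unadjusted p under 0.05 by edgeR held for 4 members and for 1706 of the 20614 genes. The difference of the log2 fold changes, cerebellum minus cortex, was 1.37 (SE 0.263) for C4b with an adjusted p of 0.110 and 0.85 (SE 0.167) for C1qa with an adjusted p of 0.115, both by edgeR. Because each mouse gave both tissues, the paired fit with the animal as a replicate block was also made. In it C4b, with a difference of 1.38 (adjusted p = 0.0368 by edgeR), and C1qa, with 0.84 (adjusted p = 0.0363 by edgeR), passed, and 0.621% of all genes did. C1qb had a difference of 0.67 in that fit and did not pass (adjusted p = 0.0616 by edgeR). For the other 6 members the adjusted p was between 0.177 and 0.882 in the paired fit by edgeR.

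The levels show what these differences look like. The summed CPM of the 3 C1q genes was 65.3, 74.9 and 80.7 in control cerebellum and 129 and 115 in KO cerebellum, against 134 to 170 over the 5 cortex libraries. This sum in the KO cerebellum lay between the control cerebellum and the cortex, without overlap with either, while C1qa alone, at 51.0 CPM in KO 1, overlapped the cortex. C4b did not stop there, since its 63.1 and 79.2 CPM in KO cerebellum were above the 51.6 CPM of the highest cortex library. C3ar1 in KO cerebellum, at 3.29 and 3.31 CPM, fell within the 2.58 to 3.59 CPM of the cortex libraries, and Itgam, at 9.77 and 9.93 CPM, remained below the 19.3 CPM of the lowest cortex library.

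All 9 members had counts in every library of both tissues, and the control tissues differed in their levels. Of the 9 members 4 were called lower in cerebellum (C1qa, C1qb, C1qc and Itgam) and 1 higher (Serping1), against 40.5% of the 19416 genes tested called either way, 21.5% lower and 19.1% higher. This fit did not pair the tissues of a mouse. With the animal as a replicate block each of these genes kept its call (for C1qa adjusted p = 1.16e-05 by edgeR). In the unpaired fit C1qa was at 26.2 ± 2.98 CPM (SD, n = 3) in cerebellum and 53.6 ± 5.52 CPM in cortex. Its log2 difference was -1.04 (SE 0.115, adjusted p = 9.03e-05 by edgeR). C1qb differed by -1.01 (SE 0.107) and C1qc by -1.09 (SE 0.142) on the log2 scale, so the 3 chains kept nearly the same distance. Itgam was at 8.30 ± 1.41 CPM in cerebellum and 22.8 ± 1.63 CPM in cortex, a log2 difference of -1.46 (SE 0.146, adjusted p = 4.74e-05 by edgeR). Gm49368, which shares its exons, had the same direction, at 4.62 to 5.95 CPM in control cerebellum and 12.1 to 16.7 CPM in control cortex. Read pairs that overlap both genes were counted for both, so these values are not independent of those of Itgam.

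Serping1 stood on the other side. It was at 15.9 ± 1.13 CPM in control cerebellum and 2.06 ± 1.07 CPM in control cortex, 7.76-fold higher (log2 2.96, SE 0.285, adjusted p = 3.99e-05 by edgeR). The lowest cerebellum library, at 14.7 CPM, was well above the highest cortex control, at 3.29 CPM. The fibroblast and meningeal list was also higher in control cerebellum, with 6 of 8 genes called and summed levels of 95.7 to 259 CPM against 21.8 to 81.8 CPM in cortex, and its part in the difference of Serping1 was not tested. Control 2 had the lowest fibroblast and meningeal sum in cerebellum, 95.7 CPM, and the highest Serping1 of the 3 controls there.

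C4b, at 32.1 ± 8.08 CPM in cerebellum and 44.6 ± 6.06 CPM in cortex, passed the adjusted p but not the fold threshold (log2 -0.48, SE 0.177, adjusted p = 0.0481 by edgeR). It was the closest to equal of the members tested. C3ar1 missed the adjusted p threshold (log2 -0.56, SE 0.235, adjusted p = 0.0739 by edgeR). C3 was at 2.52 ± 2.50 CPM in cerebellum and 0.603 ± 0.438 CPM in cortex, overlapping (log2 2.06, SE 0.878, adjusted p = 0.0780 by edgeR). With the animal as a replicate block C3 was called higher in cerebellum (log2 1.88, adjusted p = 0.00543 by edgeR), as it was without the cerebellum library of control 2 (log2 2.59, adjusted p = 0.00693 by edgeR) and by DESeq2 (adjusted p = 0.0293). Without the cerebellum library of control 3 its log2 difference was 0.97 (adjusted p = 0.364 by edgeR), and in the other 4 fits that left out a library the adjusted p was between 0.0741 and 0.202. C4b was called without the cerebellum library of control 3 (log2 -0.68) and C3ar1 without the cortex library of control 2 (log2 -0.69).

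The 12 microglial marker genes were all called lower in control cerebellum, with a median log2 difference of -1.65 and the largest, -2.58, for Fcrls. The C1q genes, between -1.09 and -1.01, and Itgam, at -1.46, lay closer to 0 than this median. Relative to the summed CPM of the microglial list, C1q was therefore higher in cerebellum, with ratios of 0.374, 0.400 and 0.405 in the controls against 0.303, 0.348 and 0.305 in control cortex. The median of all genes was 0.02 in this comparison and moved by 0.11 when libraries were scaled by their totals alone, which changed no call of a member.

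**Figure D3:**
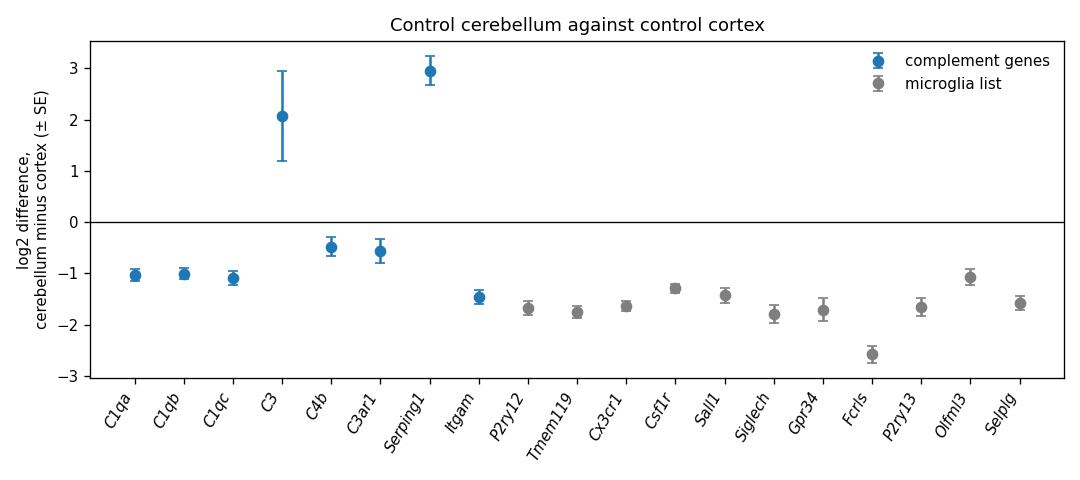
Log2 difference of control cerebellum minus control cortex with its SE (y axis) for the 8 complement genes tested (blue) and 11 of the 12 microglial marker genes (grey). C3 and Serping1 lie above 0, the other complement genes between -1.46 and -0.48 and the microglial genes shown between -2.58 and -1.07.

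To set microglial C1q against C4b and Serping1, the log2 ratio of each to the summed CPM of the C1q genes was taken in every library. For C4b it was -1.10, -1.58 and -0.98 in control cerebellum and -1.03 and -0.54 in KO cerebellum. The groups overlapped, and the KO mean was higher by 0.44 (exact two-sided permutation p = 0.30, where 0.10 is the smallest that 3 against 2 libraries allow, so no ratio could pass 0.05). Without KO 2 or control 2 the difference was 0.19 or 0.26, and without KO 1 it was 0.68. A shift between C4b and C1q in the KO cerebellum was thus not detectable with these libraries. In cortex the ratio was -1.87, -1.72 and -1.70 in the controls and -1.94 and -2.01 in the KO mice, lower in both KO libraries than in every control, by 0.21 on average (exact two-sided permutation p = 0.20).

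For Serping1 the log2 ratio was -2.004, -2.15 and -2.46 in control cerebellum and -2.69 and -2.43 in KO cerebellum. The KO mean was lower by 0.35, with overlap (exact two-sided permutation p = 0.30). In cortex it was -5.51, -6.90 and -6.51 in the controls and -6.19 and -5.11 in the KO mice, again with overlap (difference 0.66, exact two-sided permutation p = 0.40). Without KO 2 that difference was 0.12, without control 2 it was 0.36, and without KO 1 or control 1 it was 1.20 or 1.06. Between the tissues the ranges were far apart, since the highest cortex value, -5.11, was below the lowest cerebellum value, -2.69. Per unit of C1q, the cerebellum of every mouse held more C1 inhibitor RNA than its cortex.

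**Figure D4:**
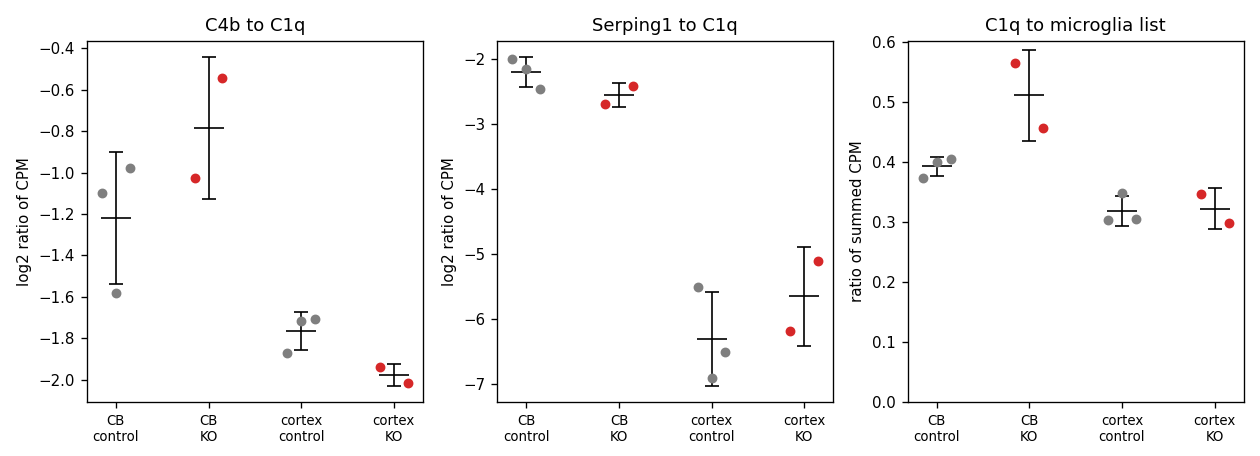
Log2 ratio of C4b (left) and Serping1 (middle) CPM to the summed C1q CPM, and ratio of summed C1q to summed microglial marker CPM (right, from 0), in each library of control (grey) and KO (red) cerebellum (CB) and cortex, with mean and SD. C1q over the microglial list was 0.565 and 0.457 in KO cerebellum, above the 0.374 to 0.405 of the controls.

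The cell type lists show what else moved with C1q and C4b in the KO cerebellum. The summed CPM of the 12 microglial genes was 175, 187 and 199 in the controls and 227 and 252 in the KO mice. Of these genes 11 had a higher mean estimate, and 1, Fcrls, was called (log2 1.62, SE 0.186, adjusted p = 0.00437 by edgeR). The ratio of C1q to this list was 0.565 and 0.457 in the KO mice, above all controls. The 8 astrocyte genes summed to 5860, 5534 and 5992 CPM in the controls and 6579 and 6293 CPM in the KO mice, and 3 were called higher, Gfap with a log2 fold change of 1.30 (SE 0.0856), Gja1 with 0.79 and Aqp4 with 0.69. Of the other 5, 2 had an estimate below 0, and Slc1a3, named after its values were seen, lay at 1103 and 1014 CPM in the KO mice, below the 1287 to 1486 CPM of the controls (log2 -0.43, SE 0.102, adjusted p = 0.0843 by edgeR). The ratio of C4b to Gfap was 0.161, 0.130 and 0.184 in the controls and 0.125 and 0.160 in the KO mice, so KO 1 lay just below and KO 2 within the control range. The call of Aqp4 was lost without control 1, control 3 or KO 1 (adjusted p of 0.0629, 0.0596 and 0.0618 by edgeR).

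Markers of infiltrating cells and of the brain's borders were also measured. The 9 monocyte and neutrophil genes summed to 1.77, 2.91 and 1.53 CPM in control cerebellum and 6.69 and 13.98 CPM in KO cerebellum. Of these genes 4 were tested there, and the neutrophil granule gene Ngp was called (log2 3.26, SE 0.471, adjusted p = 0.0114 by edgeR). Ngp rested on 6, 6 and 5 counts in controls 1 to 3 and on 27 and 91 in KO 1 and KO 2. It passed the filter on low counts only through the KO libraries. The same list summed to between 0.491 and 1.02 CPM in control cortex and to 2.04 and 4.95 CPM in KO cortex. The call of Ngp was lost without control 1, control 3 or KO 2 (adjusted p of 0.0710, 0.0608 and 0.0909 by edgeR). Itgam and C5ar1 are expressed by these cells as well as by microglia, and the part of the cells in their levels was not tested. The 6 perivascular macrophage genes summed to 12.6, 4.30 and 8.79 CPM in control cerebellum and 13.8 and 12.2 CPM in the KO mice, with 0 of 6 called by edgeR. All 8 fibroblast and meningeal genes had an estimate above 0 (median log2 0.62, from 0.10 to 0.98), with 0 called by edgeR, and summed to 259, 95.7 and 203 CPM in control cerebellum and 205 and 320 CPM in KO cerebellum, where the groups overlapped. The 5 red blood cell genes, between 4.62 and 17.2 CPM, and the 6 endothelial genes, between 110 and 133 CPM in cerebellum, had no gene called. All 6 Purkinje cell genes fell in KO cerebellum, with log2 fold changes from -1.35 for Car8 to -0.72 for Pcp4, of which Itpr1 lost its call without control 1, control 3 or either KO library (adjusted p of 0.0562 to 0.0691 by edgeR).

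The wider complement list held 50 genes, of which 33 were tested in cerebellum and 2 were called, both higher and both regulators of the terminal pathway. Over all genes tested there 0.514% were called higher and 1.55% either way. Clu, which encodes clusterin, measured 485, 460 and 505 CPM in the controls and 663 and 728 CPM in the KO mice (log2 0.52, SE 0.0837, adjusted p = 0.0176 by edgeR). Vtn, which encodes vitronectin, measured 57.9, 44.4 and 48.5 CPM in the controls and 72.4 and 85.6 CPM in the KO mice (log2 0.65, SE 0.117, adjusted p = 0.0290 by edgeR). Neither overlapped between the groups. Clu lost its call without control 1, control 3 or KO 2 (adjusted p of 0.105, 0.0765 and 0.107 by edgeR) and fell under the fold threshold without control 2 (log2 0.48). Vtn lost its call without control 3 or KO 2 (adjusted p of 0.138 and 0.169 by edgeR). Susd4, a complement inhibitor of neurons, was lower at 59.5 CPM in both KO mice against 72.3 to 80.6 CPM in the controls, passing the adjusted p but not the fold threshold (log2 -0.39, adjusted p = 0.0301 by edgeR). The median log2 fold change of the 33 genes was 0.10, and that of all genes was 0.00.

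By role, 7 of 8 initiation genes tested, 1 of 2 alternative pathway genes, 1 of 2 terminal genes, 3 of 5 receptors and 11 of 16 regulators had an estimate above 0 in KO cerebellum, and none besides Clu and Vtn was called. Masp2, which encodes a protease of the lectin pathway and overlaps another gene over 54.9% of its exonic length, was at 68.5 to 76.0 CPM in the controls, and KO 1 and KO 2 held 73.1 and 68.4 CPM. In cortex 32 of the 50 genes were tested and 0 were called by edgeR, with 19 estimates above 0. The smallest unadjusted p belonged to Sez6, a neuronal gene with complement control domains, at 205, 271 and 182 CPM in the controls and 155 and 122 CPM in the KO mice (log2 -0.65, SE 0.189, adjusted p = 0.754 by edgeR). Cd59b, an inhibitor of the membrane attack complex, had a log2 fold change of -1.11 and Masp2 one of 0.31, both with an adjusted p of 0.796 by edgeR.

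**Figure D5:**
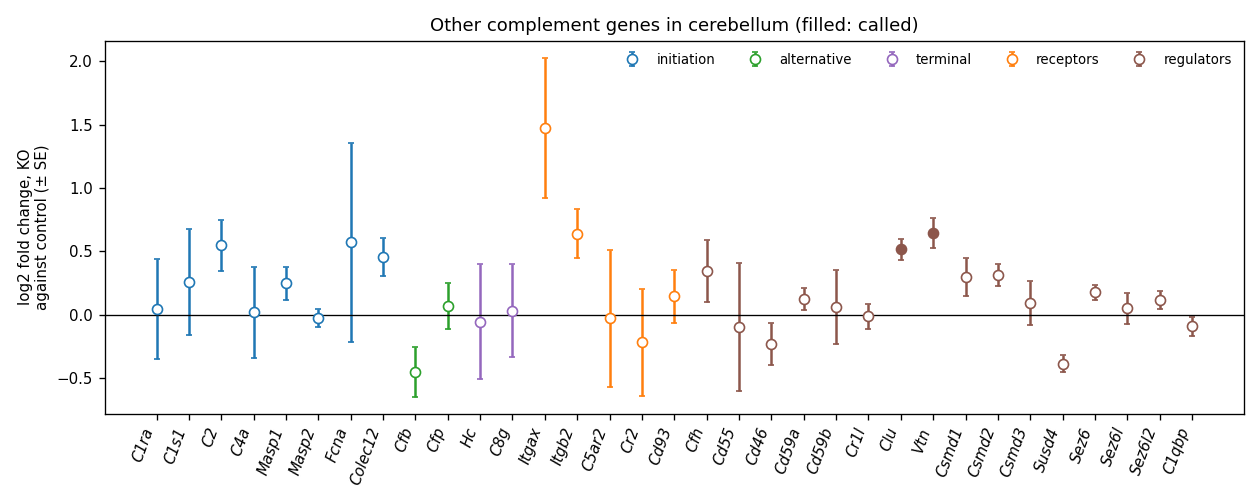
Log2 fold change of KO against control in cerebellum with its SE (y axis) for the 33 other complement genes tested, coloured by role, with called genes filled. Clu at 0.52 and Vtn at 0.65 were called, and Susd4 lay at -0.39.

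Between the control tissues 16 of 34 wider genes tested were called, 5 higher and 11 lower in cerebellum, where the shares over all genes tested were the 40.5%, 19.1% and 21.5% given above. Those lower included the receptor chain Itgb2 (log2 -1.16, SE 0.170), which pairs with Itgam, C5ar2 (-1.02), the classical pathway proteases C1ra (-1.98) and C1s1 (-1.38), C4a (-1.38) and the terminal component C7 (-5.89). The neuronal regulators Csmd1 (-2.20), Csmd2 (-1.44), Csmd3 (-1.29), Sez6 (-1.46) and Susd4 (-0.63) completed that direction. Those higher in cerebellum were the C5 gene Hc (2.92), Colec12 (1.67), Masp2 (0.76, with the overlap given above), Cd59a (0.72) and Cfp, which encodes properdin (0.64). C7 had 0, 0 and 1 counts in control cerebellum and 18, 29 and 23 in control cortex. Hc had 16, 11 and 12 counts in control cerebellum and 1, 0 and 3 in control cortex. C7 and Hc passed the filter on low counts only through the tissue where they were higher, so their calls are conditional on that filter. The sizes of their differences rest on counts near the floor in 1 tissue. C5ar2 and Cd59a lost their calls in 5 of the 6 fits that left out a library and Cfp in 4 of 6.

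The C1q-related synaptic proteins share the globular domain of C1q without belonging to the cascade. Of 8 genes 7 were tested between the control tissues and all were called, where 40.5% of all genes tested were called either way. Cbln1, the organizer of parallel fibre synapses on Purkinje cells, was higher in cerebellum by 6.61 on the log2 scale and Cbln3 by 10.67. Cbln2 (-6.77), Cbln4 (-4.08), C1ql3 (-3.52, overlapped by other genes over 64.2% of its exonic length), C1ql2 (-2.21) and C1ql1 (-0.69) were lower. In control cerebellum Cbln2 had 9, 9 and 3 counts and C1ql2 had 6, 17 and 7. In control cortex Cbln3 had 6, 10 and 22 counts. The sizes of these differences thus rest on counts near the floor in 1 tissue. None of the 6 tested in KO against control cerebellum was called by edgeR with all libraries, and Cbln1 was at a log2 fold change of -0.09 (SE 0.105) there. Cbln4 measured 0.69 to 1.12 CPM in the controls, 1.04 CPM in KO 1 and 5.42 CPM in KO 2. C1ql1 measured 3.88 to 4.52 CPM in the controls, 3.07 CPM in KO 1 and 12.2 CPM in KO 2. Without KO 1 the log2 fold changes were 2.68 for Cbln4 and 1.52 for C1ql1, which rest on the KO 2 library alone.

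The genes whose levels ran most like those of 3 members were found by Pearson's r of log2 CPM, centred within each tissue, over the 10 libraries among 16139 genes. For C1qa they included C1qc (r = 0.97), Papss2, Agt and C1qb (0.96 each). For C4b they were Lrig3 (0.98), Hs3st4 (0.96), Ctsd (0.96), Fam189a2 (0.95) and Gm49369 (0.95). For Serping1 they included Tril (0.95), Nsmf (0.95), Calcrl (0.94) and Fermt2 (0.92). These are descriptions over libraries that share 5 mice, and both other C1q chains were among the 5 most like C1qa. The values were not centred by genotype, so r also carries the difference between KO and control.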

How the data were processed

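The authors deposited, for each library, a table of raw read-pair counts by gene with no normalization. Per the file headers and the methods, trimmed paired-end reads of strand-specific mRNA libraries were aligned to GRCm38 with STAR and counted over exons with featureCounts 2.0.1. Strand was not used, pairs that overlapped several genes counted for each, and reads mapping to several places were not counted, which affects C4b and Itgam. Gene names came from GENCODE M21, in which 55450 of the 55536 gene identifiers had the same coordinates as in the count tables. The other 26345 entries, with 0.160% to 0.926% of the counts of a library, were left out.

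KO and controls were compared within a tissue, the KO effects between tissues and the control tissues with each other, by edgeR 4.0.16 (R 4.3.3) with its quasi-likelihood F test, TMM scaling and filterByExpr at a count minimum of 10. Adjusted p-values are over all genes tested, and a difference of KO effects needed an adjusted p under 0.05 alone. CPM were scaled over all 10 libraries. Likeness used log2(CPM + 1) of genes tested in both tissues with a mean of at least 1 CPM in each. Ratios were compared by exact permutation in Python 3.11.15. The fits were tested on simulated data.

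The members, gene lists and tests were chosen with earlier results of these data known. Named were all members, the wider complement genes called in any of the 4 comparisons, the 3 with the smallest p in KO against control of each tissue, at most 3 genes of each cell type list and the 5 genes most like C1qa, C4b and Serping1, of which some are not reported here. The animal numbers in the labels pair the tissues, and the same mouse's deviations from its group means correlated across 16139 genes with r of 0.27 to 0.53. Alternatives were DESeq2 1.42.0 (the authors used DESeq2 1.38.3), other scalings, no filter, leaving out each library, the animal or mouse number as a block and sex as a covariate. Intervals for single libraries were not made, and the spread is that between 2 or 3 mice.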

Additional observations from a re-analysis of the deposited data

Results flagged for a closer look

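For C4b the KO effects of the tissues differed by 1.38 on the log2 scale (cerebellum minus cortex) in the fit with the animal as a block (adjusted p = 0.0368 by edgeR), and both KO libraries lay above all controls in cerebellum and below all controls in cortex. Over the 16 fits of this difference the adjusted p for C4b ran from 7.50e-14 without a filter to 0.528 with 1 library left out, and 3 of the 16 passed.

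For C1qa the difference was 0.84 in the fit with the animal as a block (adjusted p = 0.0363 by edgeR), with higher levels in 2 of 2 KO cerebella and KO values inside the control range in cortex. Its adjusted p ran from 5.84e-05 to 0.525 over the 16 fits, and 3 of them passed.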

How the results depend on the processing

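Of the 9 members 3 were called in KO against control cerebellum, and 5 were called without a filter on low counts. With 1 library left out the count ran from 1 (without control 1, or without KO 1) to 5 (without control 3). DESeq2 also called C1qc (adjusted p = 0.00272), and with the mouse number as a replicate block, which is only a shared number within a tissue, C3 was called (log2 3.91, adjusted p = 0.0427). For the difference of the KO effects 0 passed, against 3 by DESeq2 (C1qa, C1qb and C4b), 5 without a filter and 2 with the animal as a replicate block. The count of 0 in cortex and that of 5 between the control tissues stayed within 1.5 times under every alternative run, and the 4 ratios kept their direction. With 1 library left out the C4b ratio difference ran from 0.19 to 0.68 in cerebellum and from -0.27 to -0.17 in cortex, and that of Serping1 from -0.49 to -0.22 and from 0.12 to 1.20.

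In cortex small estimates changed sign. C1qa was between -0.056 and 0.096 with 1 library left out and -0.055 with the mouse number as a replicate block. C1qb was between -0.10 and 0.12 with 1 library left out, -0.062 with that block and -0.0018 with sex as a covariate. C1qc was 0.011 with library totals only and between -0.10 and 0.093 with 1 library left out, C3ar1 between -0.054 and 0.25, and C5ar1 between -0.36 and 0.42. The difference of the KO effects for Serping1 ran from -0.78 to 0.34, the latter without cortex KO 2. Leaving out control 2 from the tissue comparison called C3 (cerebellum library, log2 2.59) and C3ar1 (cortex library, -0.69), and leaving out cerebellum control 3 called C4b (-0.68). The causes were not tested.

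Over all genes the calls in cerebellum were 302, and 842 without a filter, 181 with the mouse number as a replicate block and 133 to 400 with 1 library left out. In cortex they were 0, and 49 by DESeq2, 380 without a filter, 3 with that block, 3 with sex as a covariate and up to 98 with 1 library left out. For the difference of the KO effects they were 21, and 219 by DESeq2, 599 without a filter, 128 with the animal as a replicate block and 3 to 117 with 1 library left out. C5ar1 in both tissues and C3 in cortex rested on 5 to 31 counts a library.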
